A study of Macaca mulatta with 12 samples.

Results

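The miR-378 family comprised the pre-miRNAs of the study's merged list whose names begin with mml-mir-378, with the case of the letters ignored. Of 832 pre-miRNAs that could be read from that list, 8 met this rule, namely mml-mir-378a, mml-miR-378a, mml-mir-378a-1, mml-miR-378a-2, mml-miR-378b, mml-miR-378c, mml-mir-378d and mml-mir-378j. The names mml-mir-378a and mml-miR-378a differ only in 1 letter's case but stand for different hairpins, of 66 and 100 nucleotides. Small RNAs of untreated wild-type *Macaca mulatta* of 36 months were sequenced in 12 profiles of 8 tissues. There were 2 profiles each of muscle, kidney, large intestine and small intestine, and 1 each of occipital lobe, spinal cord, lung and liver. The labels do not tie a profile to an animal, and the study's methods say only that the tissues came from a pair of animals. The p-values here therefore do not rest on a known number of animals. Those of edgeR rest on the spread between profiles of a group, and in the main fit the neural group joined occipital lobe and spinal cord. Those of the permutation tests set muscle against profiles of several other tissues, so that their spread includes differences between tissues.

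A miRNA is cut from a hairpin by Drosha and Dicer, and its seed, the bases 2 to 8 from the 5' end, is the part that pairs most with target mRNAs. The gene of miR-378a lies in an intron of PPARGC1B, which encodes the coactivator PGC-1β, and miR-378 is known from skeletal muscle, heart and brown fat, where it acts on energy metabolism. The 3p strand is the one that usually accumulates and carries the seed of the family. Primate genomes carry many annotated copies of miR-378.

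The mature sequences that carry the family sequence are shown because their last bases decide which reads can be told apart. The seed is in capitals, and the arm is the one annotated in the study's list.
mml-mir-378a-3p: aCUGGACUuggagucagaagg
mml-miR-378a-5p: aCUGGACUuggagucagaagac
mml-mir-378d-3p: aCUGGACUuggagucagaagca
mml-mir-378a-1-5p: aCUGGACUaagagucagaagg
mml-miR-378a-2-5p: aCUGGACUuggugucagaugg
mml-mir-378j-5p: aCUGGAUUuggagccagaa
mml-miR-378c-3p: cUGGACUUggagccagaagg
mml-miR-378b-3p: uGGACUUGgagucagaaggcu
mml-mir-422a-5p: aCUGGACUcagggucagaaggc

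Positions were counted from 1 at the 5' end of mml-mir-378a-3p, whose base is given first. The 100 nucleotide hairpin differs from mml-mir-378a-3p by G21A and mml-mir-378d-3p by G21C, so that both can be recognized only in reads that reach the last bases. mml-mir-378a-1-5p carries U9A and G10A, mml-miR-378a-2-5p carries A12U and A19U, and mml-mir-378j-5p carries C7U, which lies in the seed, and U14C. mml-miR-378c-3p begins 1 base later and carries U14C. mml-miR-378b-3p begins 2 bases later and is equal to mml-mir-378a-3p over the 19 bases they share. The seed CUGGACU was common to mml-mir-378a-3p, mml-miR-378a-5p, mml-mir-378d-3p, mml-mir-378a-1-5p, mml-miR-378a-2-5p and mml-mir-422a-5p. The later starts of mml-miR-378c-3p and mml-miR-378b-3p move the seed to UGGACUU and GGACUUG.

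The hairpin of mml-mir-378a, which gave most reads of the family, is shown with the annotated arm in capitals.
mml-mir-378a: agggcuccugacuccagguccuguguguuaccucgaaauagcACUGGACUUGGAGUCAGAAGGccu

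In the short hairpin the family sequence is the 3' arm, and in the long one it is the 5' arm. The minimum free energy computed with RNAfold was -38.5 kcal/mol for mml-mir-378a, or -0.583 per base, and only 7.3% of the 832 pre-miRNAs had a lower value per base. The other members lay between -0.236 per base in mml-miR-378a-2 and -0.366 in mml-miR-378c, and 97.7% and 70.4% of the pre-miRNAs had a lower value than these. The RefSeq annotation of a later assembly, T2T-MMU8v2.0, held entries for 3 of the 8 members. There MIR378A lay within PPARGC1B, MIR378D between C5H4orf50 and CRMP1, and MIR378J within DDX52 and SYNRG. Genome coordinates are not given, because the list was made on another build.

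The authors deposited a count for each unique sequence of 18 to 44 nucleotides, and the counts added up to between 22118095 and 25579064 reads per profile. Levels are given as RPTM, the reads per 10000000 valid reads, so that 3 reads are worth 1.17 to 1.36 RPTM. Muscle, liver and neural tissue carried their usual miRNAs, and no miRNA was listed for kidney or lung. miR-133a-3p, a regulator of muscle growth, had at least 129703 RPTM in muscle and at most 911 elsewhere, and all 7 listed muscle miRNAs were higher in muscle by edgeR. The values of miR-133c-3p were nearly the same, with at least 129693 RPTM in muscle and at most 911 elsewhere, so that these are not 7 separate observations. miR-122a-5p, the main miRNA of hepatocytes, had 7320 RPTM in liver and at most 4.37 elsewhere, and miR-124a-3p, a neuronal miRNA, had 10508 in occipital lobe and 3278 in spinal cord and at most 7.26 elsewhere. Another entry for miR-499, mml-miR-499-5p, had 0 RPTM in both muscle profiles. The miRNAs listed for intestine were highest in small intestine but less distinct in large intestine. miR-215-5p had 18791 and 6963 RPTM in large intestine and 4653 in liver. miR-194-5p had 4815 and 2256 in large intestine and 5880 in liver. The erythroid miR-451-5p differed between the muscle profiles, with 295 RPTM in muscle 1 and 5006 in muscle 2.

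Over all profiles, 1670509 reads of 79 different sequences matched a family hairpin exactly, that is over their full length and without a mismatch. None of these sequences was found in a pre-miRNA outside the family among the 832 that could be read. The study's list is longer, and its other pre-miRNAs were not analysed here, so that a read described below as unique or as matching no other hairpin is so only within these 832. The reads were divided unevenly among the members. The sequences that occur only in mml-mir-378a held 87.6% of the reads and those only in mml-miR-378a held 9.66%, while 2.51% could have come from mml-mir-378a, mml-miR-378a or mml-mir-378d alike. The short hairpin mml-mir-378a had 1506785 matching reads, of which 97.2% matched no other hairpin. The long hairpin mml-miR-378a had 203702, of which 79.2% matched no other. For mml-mir-378d the reverse was seen, as only 1909 of 43911 reads, or 4.35%, matched no other. mml-miR-378b had 718 reads, of which 452 matched no other. Its mature sequence ends in GCU, an end also found on 8.1% of the reads that begin like mml-mir-378a-3p, where no family hairpin holds it. As 314 reads of mml-mir-378a began 2 bases later, such reads with an added U and reads of mml-miR-378b cannot be told apart.

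mml-miR-378c, which differs from the main miRNA inside its sequence, had 10 reads in all, and none matched another hairpin. They were 5 in muscle 1, 3 in muscle 2, 1 in large intestine 2 and 1 in occipital lobe, and the other 8 profiles had 0. These numbers are too small to compare tissues. The base change that marks mml-miR-378c-3p, U14C, was also found at 0.194% to 0.388% among reads that begin like mml-mir-378a-3p. As 35964 reads of mml-mir-378a began 1 base later, miscalled reads of it and reads of mml-miR-378c cannot be told apart. No read matched mml-mir-378a-1, mml-miR-378a-2 or mml-mir-378j, nor the related mml-mir-422a. With 0 of 285066826 reads, a level of up to 0.105 RPTM over all profiles is allowed for each of them, from counting error alone. In their annotated mature sequences, mml-mir-378a-1, mml-miR-378a-2 and mml-mir-378j differ from mml-mir-378a-3p at base 19 or earlier. The sequence of mml-mir-378j-5p is only 19 bases long.

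The family as a whole was most abundant in muscle. Its exact reads made up 2.11% of all valid reads in muscle 1 and 2.90% in muscle 2. Liver followed with 0.416%, then small intestine with 0.353% and 0.376%, large intestine with 0.270% and 0.170%, kidney with 0.112% and 0.194%, occipital lobe with 0.093%, lung with 0.063% and spinal cord with 0.040%. The lower muscle profile exceeded the highest other profile 5.07 times. The ranges of large intestine and kidney overlapped, and liver, lung, occipital lobe and spinal cord had no second profile from which a spread could be taken. In bulk tissue, a larger number of cells of a type and more of the miRNA per cell cannot be told apart.

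The family had 13 mature names, of which 4 passed the filter, a mean over the profiles of 5 RPTM or more with a standard deviation of 1 or more. Of the other 9, mml-miR-378c-3p was under the filter and 8 had no read. Among the names without reads was mml-miR-378a-3p, the annotated partner strand of the long hairpin.

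mml-mir-378a-3p, the main product of the family, had 193141 RPTM in muscle 1 and 266854 in muscle 2. It had 35785 in liver, 31796 and 32036 in small intestine, 21201 and 15937 in large intestine and 10489 and 16335 in kidney. The lowest levels were 6742 in occipital lobe, 5254 in lung and 3716 in spinal cord. Both muscle profiles thus lay above all others, by 5.40 times for the closest pair. Large intestine and kidney followed each other in this order but their ranges overlapped, and no spread can be given for liver, lung and the neural profiles. By rank it was the 6th most abundant mature sequence in both muscle profiles, the 14th in liver and small intestine and the 66th in spinal cord. It took 3.20% and 4.29% of all reads assigned to mature miRNAs in muscle.

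mml-miR-378a-5p, annotated on the long hairpin, had 23941 and 29941 RPTM in muscle. In the other profiles it ranged from 353.9 in spinal cord to 6491 in liver, with a median of 3029. The profiles of kidney, with 808 and 3376, and of large intestine, with 6251 and 1340, lay farther apart than for mml-mir-378a-3p. mml-mir-378d-3p had 7100 and 7341 RPTM in muscle and 105 to 928 elsewhere, but most of these reads end within the bases it shares with both miR-378a hairpins. mml-miR-378b-3p had 79.3 and 127 RPTM in muscle and 2.61 to 24.1 elsewhere, so that outside muscle it rested on few reads.

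**Figure D1:**
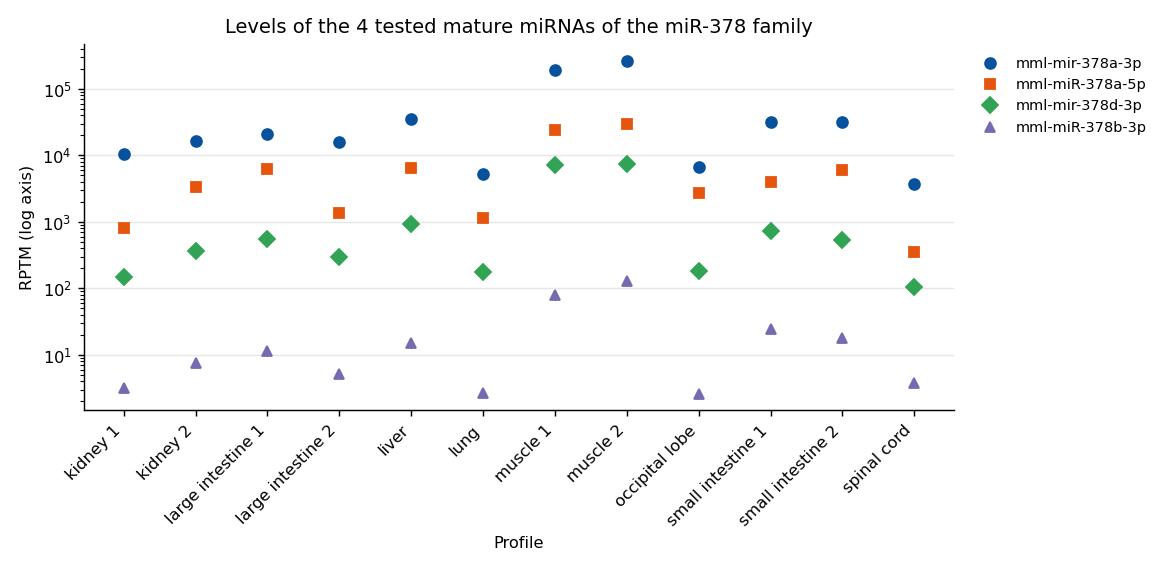
Level of mml-mir-378a-3p, mml-miR-378a-5p, mml-mir-378d-3p and mml-miR-378b-3p in each of the 12 profiles, as RPTM on a log axis, with 1 point per profile. For each miRNA both muscle points lie above the points of all other profiles, for mml-mir-378a-3p at 193141 and 266854 RPTM.

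To compare tissues, the counts of all 371 mature sequences that passed the filter were fitted with the quasi-likelihood test of edgeR in 7 groups, with spinal cord and occipital lobe joined as neural tissue, and each group was compared with the mean of the other 6. All 4 tested members were higher in muscle, where 25.6% of all tested sequences were called higher. mml-mir-378a-3p had a log2 fold change of 4.14 (SE 0.33, edgeR adjusted p = 5.92e-06) and mml-miR-378a-5p one of 3.37 (SE 0.68, edgeR adjusted p = 0.00327). For mml-mir-378d-3p the log2 fold change was 4.52 (SE 0.37, edgeR adjusted p = 7.41e-06), and for mml-miR-378b-3p 3.99 (SE 0.43, edgeR adjusted p = 5.93e-05). The median log2 fold change was 4.06 over the 4 members and -0.11 over all tested sequences. As the members share reads, these are not 4 separate observations. With only the reads that match a single pre-miRNA, all 4 remained higher in muscle, with log2 fold changes of 3.98, 2.98, 3.72 and 3.58 in the same order. Of the 341 sequences tested with these reads, 71 were called higher in muscle. Of the reads that begin with the bases shared by mml-mir-378a, mml-miR-378a and mml-mir-378d, only 0.089% ended on mml-mir-378d alone. A change of G to C at base 20, the last shared base, was found at 0.099% to 0.204%. At such levels a read of mml-mir-378d and a miscalled read of mml-mir-378a cannot be told apart. The same holds for reads of mml-miR-378b that end in GCU and reads of mml-mir-378a with an added U.

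In neural tissue all 4 members were lower, where 27.5% of all tested sequences were called lower. mml-mir-378a-3p fell by 3.74 on the log2 scale (SE 0.50, edgeR adjusted p = 0.000116). The median over the members was -3.47 and that over all tested sequences 0.59. The normalization moved these values, because the TMM factors of occipital lobe and spinal cord were 2.27 and 2.49 against 0.623 to 1.37 elsewhere. With the total valid reads in place of these factors the median of all tested sequences was 1.97 and mml-mir-378a-3p fell by 2.34 (edgeR adjusted p = 0.000317), whereas mml-miR-378a-5p with -1.56 was no longer called (edgeR adjusted p = 0.112). The call of mml-miR-378a-5p in neural tissue was also lost without spinal cord (-1.78, edgeR adjusted p = 0.124), and without occipital lobe its value was -5.01, against -2.94 with both. On the scale of RPTM, lung with 5254 lay between spinal cord and occipital lobe for mml-mir-378a-3p, so that the levels of the neural profiles were not separate from all other tissues.

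In small intestine, mml-mir-378a-3p had a log2 fold change of 1.25 (SE 0.35, edgeR adjusted p = 0.0318) and mml-miR-378b-3p one of 1.73 (SE 0.47, edgeR adjusted p = 0.0288). The other members, mml-miR-378a-5p with 1.003 and mml-mir-378d-3p with 0.81, were not called, and 12.1% of all tested sequences were called higher in this tissue. With 8 tissue groups both were called (1.54, edgeR adjusted p = 0.0481, and 1.25, edgeR adjusted p = 0.0202), where 69 of 371 tested sequences were called higher. mml-mir-378d-3p was also called without kidney 2 (1.18, edgeR adjusted p = 0.0463), where 54 of 376 were called higher. The call for mml-mir-378a-3p was lost with total valid reads (0.71, edgeR adjusted p = 0.105) and without either small intestine profile, without lung or without large intestine 1. The call for mml-miR-378b-3p was lost with total valid reads (1.21, edgeR adjusted p = 0.0848), without small intestine 1 (1.67, edgeR adjusted p = 0.177) or 2 (2.16, edgeR adjusted p = 0.0518), and on the 8 numbered profiles with the replicate block (0.59, edgeR adjusted p = 0.399) or without it (0.58, edgeR adjusted p = 0.384). None of the 4 members was called in kidney, where 20.8% of all tested sequences were, or in large intestine, where 14.6% were. For mml-mir-378a-3p the log2 fold changes were -0.10 (SE 0.38) in kidney and 0.45 (SE 0.36) in large intestine, and both changed sign under other settings. On the 8 numbered profiles without the block, mml-mir-378a-3p, mml-mir-378d-3p and mml-miR-378b-3p were called lower in kidney, with edgeR log2 fold changes of -1.86, -2.18 and -2.22. In that fit 53 of 301 tested sequences were called lower in kidney.

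**Figure D2:**
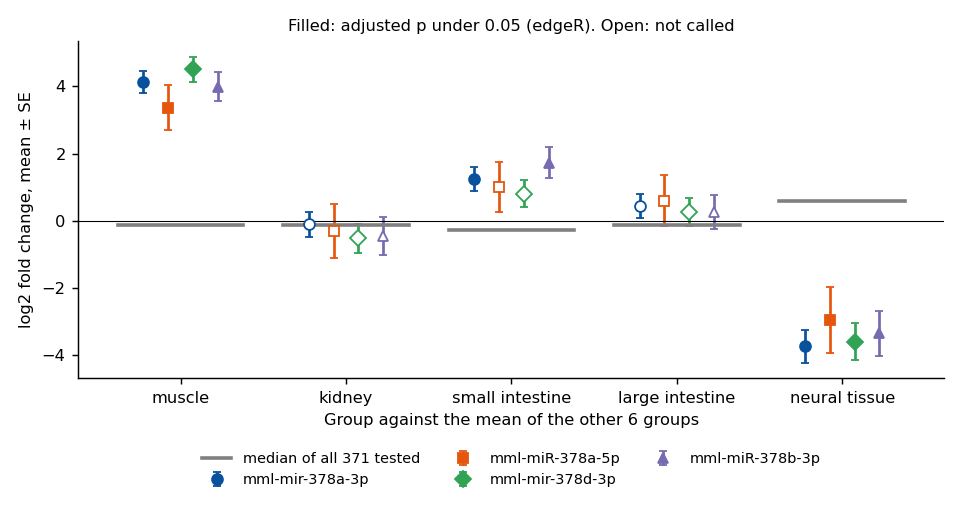
Log2 fold change of the 4 tested members in each group against the mean of the other 6 groups, with the standard error as bars, filled where the edgeR adjusted p was under 0.05, and the median of all 371 tested sequences as a grey line. The members lie at 3.37 to 4.52 in muscle and at -3.74 to -2.94 in neural tissue, and near the grey line in kidney.

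The 3 mature sequences outside the family whose profile was most like that of mml-mir-378a-3p were muscle miRNAs. Pearson's r of log2(RPTM + 1) over the 12 profiles was 0.83 for mml-mir-133c-5p, 0.81 for mml-mir-1-1-3p, whose sequence is also that of mml-mir-1-2-3p, and 0.80 for mml-mir-206-3p. Within the family r was 0.98 for mml-mir-378d-3p, 0.97 for mml-miR-378b-3p and 0.92 for mml-miR-378a-5p, some of which reads are the same. These values describe the same 12 libraries and rest largely on the difference between muscle and the rest. The likeness has a limit outside muscle. mml-mir-206-3p had 117 and 137 RPTM in muscle and at most 1.30 elsewhere, whereas mml-mir-378a-3p had at least 3716 in each profile.

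Reads that match 1 hairpin alone allow both miR-378a hairpins to be compared without the reads they share. Most of these reads are told apart by their last bases. Whether those assigned to mml-miR-378a come from a second gene was not tested. Of the reads unique to one or the other, mml-miR-378a took 8.40% in muscle 1 and 8.06% in muscle 2 (95% Wilson intervals 8.32 to 8.48 and 7.998 to 8.13). Other replicate pairs lay far apart, with 6.03% and 15.96% in kidney, 21.7% and 6.27% in large intestine and 9.71% and 14.8% in small intestine. The share was 13.9% in liver, 16.4% in lung, 27.7% in occipital lobe and 6.58% in spinal cord. The high profile of a pair was number 2 in kidney and small intestine and number 1 in large intestine. As a share of all family reads, the reads unique to mml-mir-378a had a mean of 89.0% in muscle and of 84.3% (SD 6.99, n = 10) in the other profiles, a difference smaller than that spread (exact permutation test, two-sided, p = 0.394, adjusted over 6 shares 0.473).

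Both arms of mml-mir-378a gave reads, although the study's list names only the 3' arm. The most frequent read of each arm is shown with the number of its first and last base in the hairpin.
5' arm, bases 5 to 26: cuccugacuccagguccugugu
3' arm, bases 43 to 64: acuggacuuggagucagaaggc

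The 5' arm had 455 reads, 72.3% of them this sequence, and the 3' arm 1506330, of which 74.9% were the sequence shown. In the predicted fold of the hairpin these 2 reads leave a 3' overhang of 2 bases at both ends, as is usual for the products of Drosha and Dicer. The 5' arm had 142 reads in muscle 1 and 178 in muscle 2, or 59.2 and 77.6 RPTM, and 3 to 25 reads or 1.31 to 10.2 RPTM in the other profiles. It thus followed the 3' arm, and as a share of the reads of the hairpin it was 0.031% and 0.029% in muscle and 0.040% (SD 0.029, n = 10) elsewhere (exact permutation test, two-sided, p = 0.652, adjusted over 6 shares 0.652). The highest share was 0.116% in occipital lobe, from 18 reads (95% Wilson interval 0.073 to 0.183).

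The starts of the 3' arm reads were sharp. Of these reads, 97.4% began at base 43, the annotated start, 2.39% began 1 base later and 0.200% 1 base earlier. A start 1 base later gives the read the seed of mml-miR-378c-3p. Shifted starts of all kinds took 2.54% and 2.40% in muscle and 2.48% to 3.67% elsewhere, a difference of means of -0.57 percentage points that was not called (exact permutation test, two-sided, p = 0.0909, adjusted over 6 shares 0.182).

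**Figure D3:**
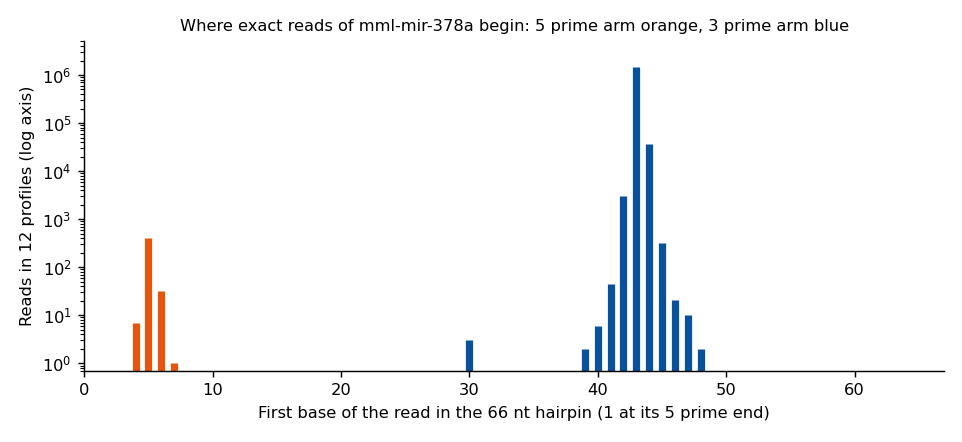
Number of exact reads of mml-mir-378a in the 12 profiles together, on a log axis, by the base of the hairpin at which the read begins. The highest bar of the 3' arm is at base 43 with 1466946 reads, followed by base 44 with 35964 and base 42 with 3017, and that of the 5' arm is at base 5 with 415 reads.

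The 3' ends were more diverse. The bases shared by mml-mir-378a, mml-miR-378a and mml-mir-378d from the annotated start are 20, and 2124272 reads began with them. The most frequent forms are shown with the bases after the shared ones in capitals.
GC, on mml-mir-378a: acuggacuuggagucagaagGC
G, on mml-mir-378a: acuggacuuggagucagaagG
GCC, on mml-mir-378a: acuggacuuggagucagaagGCC
AC, on mml-miR-378a: acuggacuuggagucagaagAC
GCU, on no family hairpin: acuggacuuggagucagaagGCU
GCA, on no family hairpin: acuggacuuggagucagaagGCA
GA, on no family hairpin: acuggacuuggagucagaagGA

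The form of 22 bases that ends in GC held 53.1% of these reads, and the annotated form of 21 bases that ends in G only 10.3%, so that the most frequent product of the hairpin was 1 base longer than the annotated one. The GC form was the most frequent in every profile, from 37.2% in liver to 59.5% in muscle 2. Reads that run past the annotated end made up 77.4% and 82.9% of the exact reads with the annotated start in muscle and 83.7% to 88.6% elsewhere. Both muscle profiles were thus below the lowest other profile, occipital lobe. The difference of means was -5.84 percentage points (exact permutation test, two-sided, p = 0.0152, the smallest that 66 arrangements allow), and it did not pass after adjustment over 6 shares (0.0909). The form that ends in G took 13.6% and 10.7% in muscle and 6.15% to 7.84% elsewhere.

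The long hairpin had another pattern at its end. Its form that ends in AC had 154977 reads and the form 1 base shorter, which ends in A, had 3017, a ratio of 51.4. For mml-mir-378a the ratio of GC to G was 5.13 over all profiles and 3.94 to 8.0 in single profiles. For mml-miR-378a it lay between 32.6 in muscle 1 and 188 in large intestine 1, above the highest ratio of mml-mir-378a in all 12 profiles. The AC form took 6.21% and 6.27% of the reads with the shared bases in muscle, 3.92% and 11.0% in kidney, 16.975% and 4.47% in large intestine and 20.2% in occipital lobe. The GCC form, which is 1 base longer than the GC form on mml-mir-378a, was also unequal in these pairs, with 2.58% and 6.91% in kidney and 8.70% and 2.32% in large intestine, and it was highest in liver with 9.52%. Whether these unequal replicates come from the tissue samples or from the libraries was not tested.

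A tail that no family hairpin holds ended 23.4% of the reads. Tails of 1 or 2 A were found on 9.49% and tails of 1 or 2 U on 9.68%. The share with an A tail was 9.93% and 7.03% in muscle and 12.5% (SD 2.17, n = 10) elsewhere, from 8.51% in large intestine 1 to 14.96% in kidney 1. The difference of -4.07 percentage points did not pass after adjustment (exact permutation test, two-sided, p = 0.0303, adjusted over 6 shares 0.0909). The share with a U tail was 7.82% and 8.57% in muscle and ranged from 5.39% in occipital lobe to 16.2% in small intestine 1 (exact permutation test, two-sided, p = 0.273, adjusted over 6 shares 0.409). The 3' adapter of the libraries begins with a T, so that a tail of 1 U and an adapter base left on the read cannot be told apart. Tails that held the first 3 bases of the adapter, which begins with TGG, were counted apart and ended 1.07% of the reads.

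**Figure D4:**
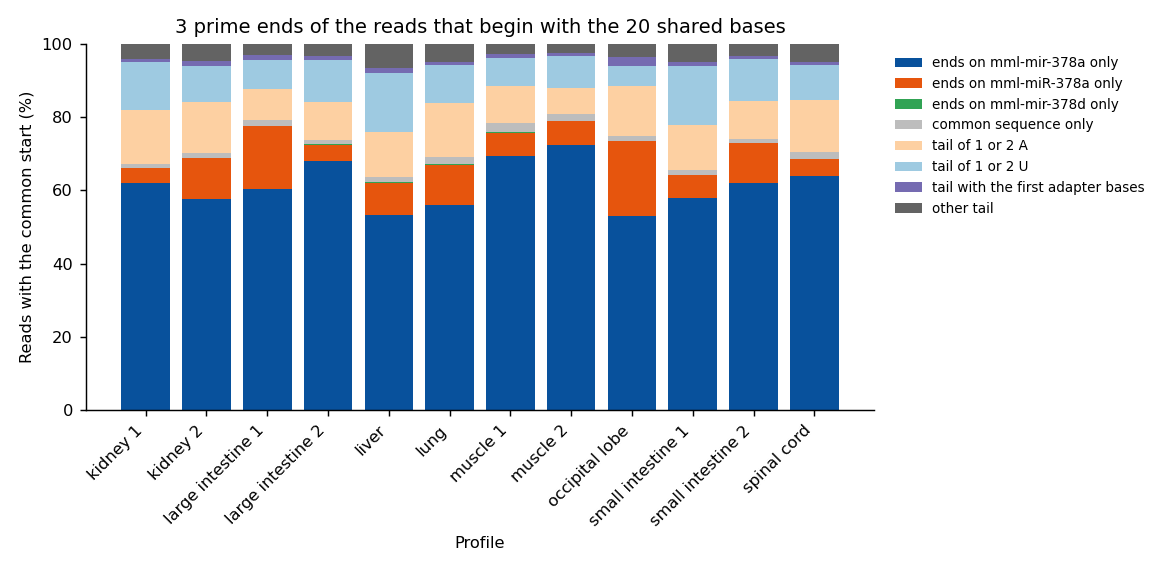
Share of the reads that begin with the 20 shared bases, in percent, by what follows these bases and by profile, stacked to 100. Ends found only on mml-mir-378a take most of each bar, and the ends of mml-miR-378a are widest in occipital lobe and large intestine 1.

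The reads were also searched for single changes within the 20 shared bases, 60 in all. The change A16G stood apart, and it was singled out after the values were seen. The changed sequence is shown with the changed base in capitals.
A16G: acuggacuuggagucGgaag

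Its level, the changed reads as a percentage of changed and unchanged reads, was 13.9% in occipital lobe (4483 of 32180 reads, 95% Wilson interval 13.6 to 14.3) and 8.10% in spinal cord (1155 of 14264 reads, 7.66 to 8.56). Lung followed with 4.20%. Large intestine had 1.37% and 1.98%, kidney 0.775% and 0.855%, liver 0.816%, small intestine 0.514% and 0.583% and muscle 0.331% and 0.334%. The profiles with the highest level of the change were those with the lowest level of the family, and muscle, with the highest level of the family, had the lowest level of the change. No other of the 60 changes reached 5% with 10 reads in a profile. The highest level of any other was 0.967%, for A6G in spinal cord, and the median over all changes and profiles was 0.031%. None of the 832 pre-miRNAs that were read holds the changed sequence.

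The change was found in reads with the end of either miR-378a hairpin. In reads of 22 bases with the GC end of mml-mir-378a it was 14.5% in occipital lobe, 8.60% in spinal cord and 4.53% in lung. In those with the AC end of mml-miR-378a it was 14.6%, 9.95% and 4.69%. The 95% Wilson intervals of the pair overlapped in 11 of 12 profiles, and not in small intestine 1 with 0.611% and 0.384%. A-to-G changes in reads are what A-to-I editing leaves, since inosine is read as G. Whether the changed base was edited or differs in the genome of an animal was not tested. C15U, also picked from all changes searched, had a far lower level. It was 0.327% and 0.310% in muscle and 0.049% to 0.166% elsewhere, the latter in occipital lobe. A12G had 0.379% and 0.383% in muscle and 0.261% to 0.599% over all profiles, so that C15U in muscle was not above A12G.

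**Figure D5:**
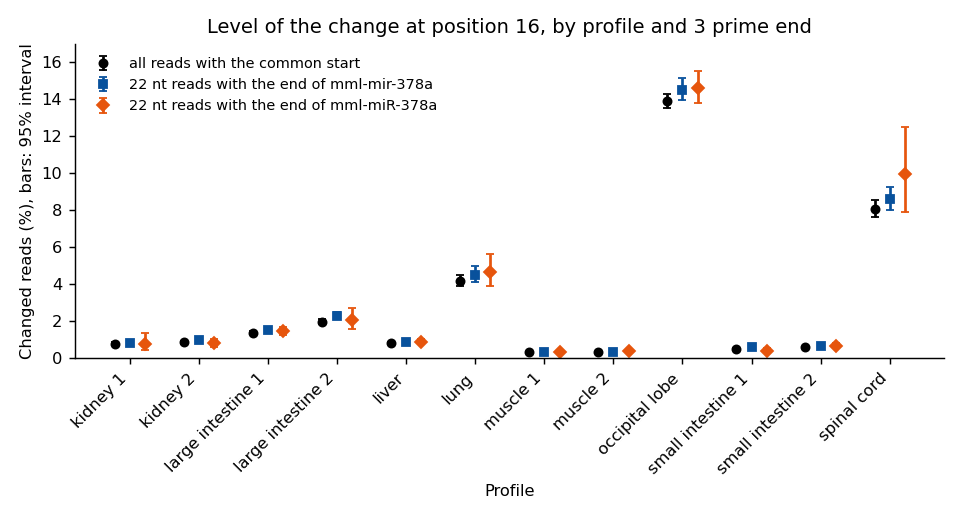
Level of A16G in percent of changed and unchanged reads in each profile, with 95% Wilson intervals, for all reads with the shared bases and for reads of 22 bases with the end of either miR-378a hairpin. Occipital lobe with 13.9%, spinal cord with 8.10% and lung with 4.20% lie above the other profiles, and the values of both ends are close there.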

How the data were processed

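Small RNA libraries (TruSeq, Illumina) of 12 tissue samples were made by the authors, who filtered reads by score, removed the 3' adapter and deposited counts of unique sequences without normalization. The members, lists and tests were chosen with earlier results of these data known. Pre-miRNA and mature sequences were taken from the study's supplementary list, as far as it could be read. A read was counted for each mature miRNA of which it matched the hairpin exactly with both ends within 2 nucleotides. Counts of 371 mature sequences that had a mean of 5 RPTM or more and a standard deviation of 1 or more were tested with edgeR 4.0.16 (TMM, 7 groups, Benjamini-Hochberg adjustment, threshold 0.05) in R 4.3.3. DESeq2 1.42.0 was an alternative. The 6 shares of reads were compared between muscle and other profiles with exact permutation tests in Python 3.11.15 with scipy 1.17.1, and hairpins were folded with RNAfold 2.7.2. Wilson intervals have a confidence level of 95% and cover counting error only. The named miRNAs were the family, mml-mir-422a, 7 muscle miRNAs and the 3 sequences with the highest correlation. On simulated counts for muscle, 74 of 371 sequences were changed 8 times, of which 100% were called, with 1 false call among the others. The median log2 fold change of the changed sequences was 2.61. The simulated profiles held no other difference between tissues, so that the power on the real counts is not given by this. Replicate numbers were not used to pair the profiles in the main fit, as the labels do not name the animal. The correlations between the deviations of same-numbered profiles ranged from -0.139 to 0.153. They cannot show whether a number stands for an animal.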

Additional observations from a re-analysis of the deposited data

How the results depend on the processing

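The higher level of mml-mir-378a-3p in muscle and its lower level in neural tissue kept their direction and their call under all alternatives that were run for them. Without 1 profile at a time, the log2 fold changes ranged from 3.61 to 4.42 in muscle, -4.17 to -2.999 in neural tissue, 0.94 to 1.51 in small intestine, 0.02 to 0.64 in large intestine and -0.93 to 0.19 in kidney, and 4 members remained called in muscle. The value in kidney turned positive without kidney 1 (0.19) and without liver (0.03). In small intestine the call was lost with total valid reads (0.71), with reads identical to the mature sequence only (1.04) and without small intestine 1 (1.38), small intestine 2 (1.45), lung (0.94) or large intestine 1 (1.26). With total valid reads, large intestine changed to -0.21. With 8 tissue groups kidney changed to 0.38, and large intestine to 0.92, which was then called.

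The replicate block, fitted on the 8 numbered profiles, gave 2.85 in muscle, -1.90 in kidney (called), -0.0458 in small intestine and, for large intestine, -0.91. The same 8 profiles without the block gave 2.85, -1.86 (called), -0.0536 and -0.94, so that the change came with the profiles left out, among them liver, lung and neural tissue, and not with the block. With reads identical to the mature sequence only, 3 members were called in muscle, since mml-mir-378d-3p was not tested there. In that fit 74 of 262 tested sequences were called higher in muscle.

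None of the 6 shares was called, and the smallest adjusted p was 0.0909 at 66 arrangements, so that calls under other settings say nothing about their stability. No alternative changed the sign of a difference. Without 1 profile at a time the difference between muscle and other profiles ranged from 3.21 to 5.63 percentage points for reads unique to mml-mir-378a, -8.54 to -3.13 for long reads, -0.64 to -0.50 for shifted starts, -0.012 to -0.0015 for the 5' arm, -5.52 to -2.62 for A tails and -3.58 to -2.39 for U tails. The levels of A16G in occipital lobe and spinal cord were 13.9% and 8.05% from sequences with at least 2 reads and 14.5% and 8.60% from reads of 22 nucleotides with the GC end, alternatives chosen after seeing the data. Low counts limit mml-miR-378c-3p and mml-miR-378b-3p outside muscle. No interval here covers PCR duplicates.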
